A study of Mus musculus with 4 samples.

Results

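The DNA replication and S phase genes are a list of 43 genes whose products license origins, unwind and copy DNA, supply nucleotides, or move a cell from G1 into S phase. They were chosen by gene name under a rule that uses no measured value, but with earlier results of these data known. All 43 were present among the 55573 genes of the deposited table. All 43 are protein-coding. The signal is given as RPKM (reads scaled for gene length and library size). The sample titles name polysome sequencing, whereas the extraction text of the same samples describes ribosome-protected fragments left by RNase I, and which of these assays the table holds was not settled here. It was measured in primary myoblasts, the muscle precursor cells that grow from digested hind-limb muscle, from 3-week-old mice on day 2 of proliferation with FGF in the medium. There were 2 WT libraries and 2 libraries labelled eIF5A knockout (eIF5A-KO, written KO). According to the study's methods, the KO mice carried floxed eIF5A and Pax7-CreERT2, a Cre that needs tamoxifen, which the mice were given, and that is driven by Pax7. The controls of these myoblasts are given as WT littermates, and elsewhere in the study WT means Pax7-CreERT2 mice or floxed eIF5A mice without Cre. Whether replicates came from separate mice or cultures is not stated, so p-values measure only the spread between these libraries, which may be technical.

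Before S phase, the origin recognition complex, Cdc6 and Cdt1 load a ring of Mcm2 to Mcm7 onto DNA, and geminin (Gmnn) holds Cdt1 back so that each origin is used only once. The ring becomes an active helicase when Cdc45 and the GINS complex join it. The polymerases then copy DNA while tethered to the PCNA clamp, which the RFC complex opens and closes. Cyclin D and cyclin E release E2F transcription factors, which switch on many of these genes. Proliferating myoblasts pass through this programme, and they leave it when they differentiate into Myog-positive myocytes. eIF5A helps ribosomes past stretches such as consecutive prolines.

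The libraries held between 642429 and 704006 recovered reads, and the share of them on protein-coding genes was 41.5% and 33.9% in WT against 65.4% and 59.2% in the KO-labelled pair. The part of this difference between the groups in the results was not tested. The targeted gene Eif5a had 34.9 and 65.2 RPKM in WT libraries 1 and 2 and 60.3 and 59.4 RPKM in the KO-labelled libraries, which gave a log2 fold change of 0.32 ± 0.48 (standard error) and adjusted p = 0.839 in limma. It was -0.12 without WT library 1. A lower Eif5a signal was thus not shown in these libraries, and the group is called the KO-labelled libraries throughout. One library stood apart. Of 8 myocyte markers, the summed signal was 175.2 RPKM in WT library 1 against 18.6 RPKM in WT library 2 and 8.9 and 8.8 RPKM in KO libraries 1 and 2. Myog alone had 82 reads in WT library 1 and 3, 1 and 2 reads in the others. KO library 1 had the highest share of fibroblast marker reads, 1.21% of protein-coding reads against 0.462% to 0.789% elsewhere, and 7 of 9 fibroblast markers had a log2 fold change above 0 (median 0.69, and 0.04 without KO library 1). The 8 myoblast markers took 0.175% and 0.124% of protein-coding reads in WT and 0.0798% and 0.0709% in the KO-labelled libraries, with all 7 tested ones below 0 (median log2 fold change -1.27). Among them Myod1 had 139.9 and 117.5 RPKM in WT and 48.6 and 79.8 RPKM in the KO-labelled libraries. Summed endothelial markers were 117.7 and 108.2 RPKM in WT and 151.1 and 124.0 RPKM in the KO-labelled libraries, with all 6 tested ones above 0 (median 0.46) and 5 higher without overlap between the groups, where 20.1% of all tested genes were. Summed immune markers ranged from 32.3 to 42.3 RPKM. What part these other cell types had in the members' differences was not tested. Of the 43 members, 18 overlap a gene on the other strand, 4 of them with at least 100 reads in the overlapping genes, and whether counting used strand is not stated. Fewer cells of a type and less RNA per cell cannot be told apart in such bulk samples.

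The promoters of the members were searched for E2F words, since E2F is the known switch of these genes. The words were TTTCCCGC, TTTCGCGC, TTTGCCGC and TTTGGCGC on either strand, overlaps included, in the RefSeq promoter window around each gene start (GRCm38.p6). Windows were found for 33 of the 43 members. Of their 39 windows 33.3% held a word, against 2.265% of 32851 windows of all genes. These are matches of letters and not measured binding. A match upstream of a RefSeq start is shown for each of several helicase ring subunits and for Pola1 and Uhrf1. Mcm5 holds 2 upstream matches, the unmarked one overlapping the one in capitals on the other strand, and Mcm6 holds 3, of which the one nearest the start is shown. The matches of Mcm7 and Uhrf1 lie inside the gene as GENCODE M21 draws it, which begins further upstream than the RefSeq start used. The sequences are read 5′ to 3′ on the gene's strand with the word in capitals, as its reverse complement in Mcm7 and Pola1. They lie at chr8:75109345-75109374 (Mcm5, plus strand), chr1:128359734-128359763 (Mcm6, minus strand), chr5:138172030-138172059 (Mcm7, minus strand), chrX:93632275-93632304 (Pola1, minus strand) and chr17:56304117-56304146 (Uhrf1, plus strand).
Mcm5: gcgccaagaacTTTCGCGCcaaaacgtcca
Mcm6: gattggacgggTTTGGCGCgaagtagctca
Mcm7: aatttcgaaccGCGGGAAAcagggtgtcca
Pola1: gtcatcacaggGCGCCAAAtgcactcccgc
Uhrf1: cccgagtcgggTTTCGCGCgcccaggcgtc

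The coding sequences of the members were searched for proline runs, which ribosomes pass with the help of eIF5A. A run of 3 or more prolines was present in the longest coding sequence of 8 of the 43 members (18.6%) and of 19.9% of protein-coding genes. The 8 were Mcm10, Rfc1, Pola1, Pole, Lig1, Ccne1, E2f1 and Uhrf1. Runs are shown for Lig1, which has the longest, and for Rfc1, Pola1 and Uhrf1, which had the most reads of the others, with the proline codons in capitals, read 5′ to 3′ on the coding strand (GENCODE M21, GRCm38). The longer run of Lig1 lies in exon 13 of 29 at chr7:13296314-13296343 and covers residues 409 to 412, that of Rfc1 in exon 18 of 25 at chr5:65274411-65274437 and covers residues 793 to 795, and those of Pola1 in exons 7 and 15 of 37 at chrX:93604467-93604493 and chrX:93591457-93591483. The run of Uhrf1 covers residues 293 to 295, and the stretch shown around it crosses an exon junction. The same holds for the stretch around a shorter run of Lig1 at residues 49 to 51, not shown.
Lig1: ctcatgctgCCTCCACCTCCActtactatt
Rfc1: ttaaaaatcCCCCCTCCAgctatgaat
Pola1, first run: caaataactCCACCACCTgtattgata
Pola1, other run: gatgtcagtCCTCCTCCActtgtggtg
Uhrf1: ccctcgcaaCCCCCTCCTgccctccgg

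Most replication genes had a higher fitted level in the KO-labelled libraries, without any single gene passing the test. Of the 43 genes, 38 had a mean of at least 1 RPKM and were tested. Of these, 34 had a log2 fold change above 0 and 4 below 0, with a median of 0.78, against 50% above 0 and a median of 0.00 over all 11363 tested genes. By limma on log2(RPKM + 1), 0 of the 38 passed an adjusted p of 0.05 (adjusted p from 0.660 to 1.00), and 0.106% of all tested genes did. With 2 libraries a group, a p that misses the threshold does not show that levels were equal. At an unadjusted p under 0.05 there were 5 higher genes, Mcm4, Gins1, Rfc4, Rpa2 and Rrm1, where 2.86% of all tested genes were higher. None of the 38 was lower at that threshold, where 4.46% of all tested genes were. Both KO-labelled libraries lay above both WT libraries for 18 of the 38, against 20.1% of all tested genes, and below both for 1 (Ccnd3), against 20.3%.

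The size of this difference rested on WT library 1. That library was the lowest of the 4 for 29 of the 38 genes (76.3%), and for 28% of all tested genes. It lay below both KO-labelled libraries for 34 of the 38 (89.5%, against 35.9% of all tested genes), and WT library 2 did so for 18 (47.4%, against 35.0%). Without WT library 1 the median log2 fold change was 0.12 with 23 of 38 genes above 0, and without WT library 2 it was 1.10 with 36 above 0. Leaving out KO library 1 gave 0.56 with 31 above 0, and leaving out KO library 2 gave 0.81 with 34. In KO library 1, which held the most fibroblast marker reads, the 43 genes summed to 373 RPKM, against 334 RPKM in KO library 2.

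The same order appeared in the share of protein-coding reads. The 43 genes took 0.137% of these reads in WT library 1 (370 reads, 95% Wilson interval 0.124 to 0.152), 0.272% in WT library 2 (592 reads, 0.251 to 0.295), 0.309% in KO library 1 (1423 reads, 0.294 to 0.326) and 0.292% in KO library 2 (1126 reads, 0.276 to 0.310). The interval of WT library 1 lay below the 3 others, and that of WT library 2 overlapped both intervals of the KO-labelled libraries. These intervals cover counting error only, since PCR copies are not independent molecules. Summed RPKM were 2.16 times as high in WT library 2 as in WT library 1, and the mean of the KO-labelled libraries was 1.13 times that of WT library 2. The spread within WT thus exceeded the distance from WT library 2 to KO. The share of myocyte marker reads ran the other way, with 0.129% in WT library 1 and 0.0184%, 0.0115% and 0.00935% in WT library 2 and KO libraries 1 and 2. Its part in the result was not tested.

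**Figure D1:**
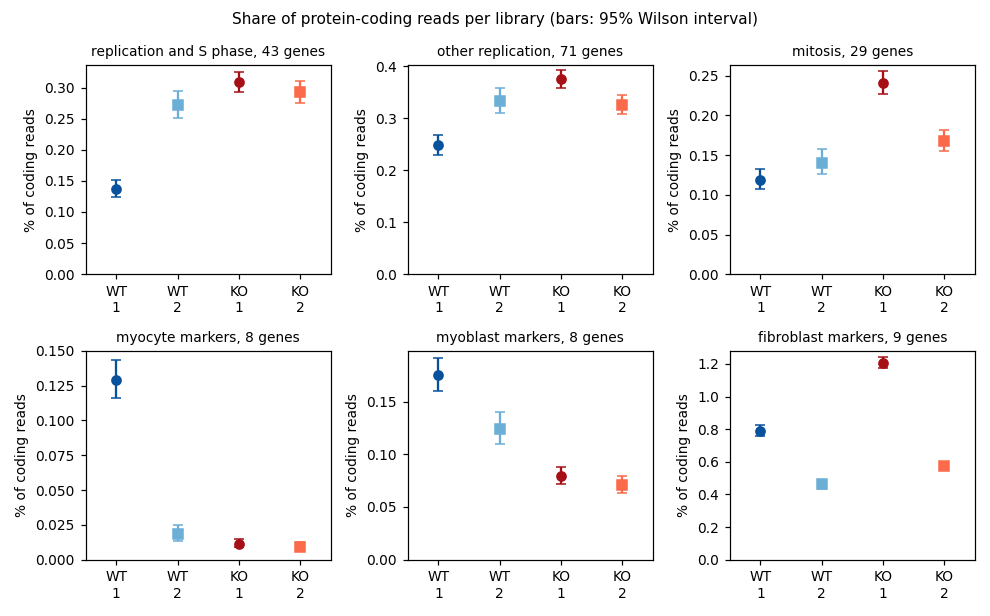
Share of protein-coding reads (%) in each of the 4 libraries for 6 gene lists, with circles for replicate 1, squares for replicate 2, and bars for the 95% Wilson interval, on axes that start at 0. The replication and S phase genes are lowest in WT library 1 (0.137%), where the myocyte markers are highest (0.129%).

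**Figure D2:**
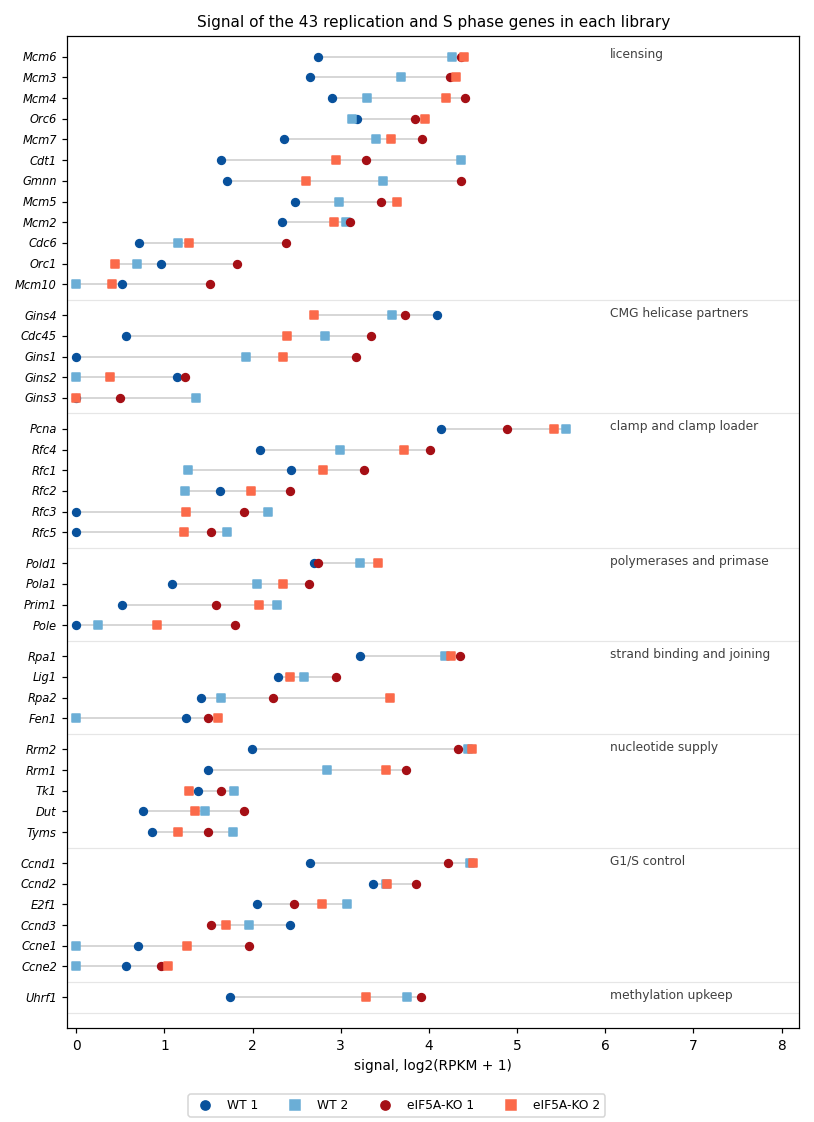
Signal, log2(RPKM + 1), of the 43 genes in each library, grouped by role and ordered by mean RPKM, with blue for WT and red for KO-labelled libraries. The dark blue circle of WT library 1 is the leftmost point in most rows, including 29 of the 38 tested genes.

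The licensing genes came first in the pathway and all 11 tested ones of 12 had a log2 fold change above 0, with a median of 0.87. Without WT library 1 that median was 0.44, with 9 of 11 above 0. Orc1 and Cdc6, counted among the 11, passed the filter only through the KO-labelled libraries. Mcm4 (ENSMUSG00000022673, chromosome 16, 15623897 to 15637400, minus strand, GRCm38), a subunit of the helicase ring, had 6.47 and 8.87 RPKM in the WT libraries and 20.3 and 17.2 RPKM in the KO-labelled libraries. The groups did not overlap, and the means were 7.67 ± 1.70 and 18.8 ± 2.14 RPKM (SD, n = 2 each), a 2.45-fold difference. The log2 fold change was 1.20 (standard error 0.39), unadjusted p = 0.022 and adjusted p = 0.660 (limma). Without WT library 1 the value was 1.00, and 145 reads lay behind it.

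Mcm6, the subunit with the highest mean signal in this group, had 5.69 and 18.2 RPKM in WT and 19.6 and 20.2 RPKM in the KO-labelled libraries. WT library 2 stood just below the KO pair, and the log2 fold change of 0.88 (standard error 0.58) became 0.12 without WT library 1. Mcm3 had 5.31 and 11.9 RPKM against 17.9 and 18.8 RPKM, a log2 fold change of 1.10 (standard error 0.47, unadjusted p = 0.059, limma), and 0.59 without WT library 1. Mcm5 and Mcm7 followed with 0.82 and 0.87, both without overlap between the groups, and without WT library 1 these were 0.56 and 0.35. Mcm2, by contrast, had 4.05 and 7.32 RPKM against 7.61 and 6.59 RPKM, so that WT library 2 lay between the KO libraries and the log2 fold change was 0.32, or -0.04 without WT library 1. The gene of Mcm7 contains the microRNA gene Mir106b on its own strand and overlaps Cops6 on the other, and 403 reads were counted to its overlapping genes.

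The 6 subunits Mcm2 to Mcm7 stand in equal numbers in the ring, so their levels were set side by side per gene length. They spanned 4.05 to 6.47 RPKM in WT library 1, 6.91 to 18.2 RPKM in WT library 2, 7.61 to 20.3 RPKM in KO library 1 and 6.59 to 20.2 RPKM in KO library 2. The highest subunit thus exceeded the lowest 1.60-fold in WT library 1 and 2.63-fold to 3.06-fold in the others. Scaled per kilobase of coding sequence instead, these ratios were 1.32-fold and 2.06-fold to 2.80-fold. In WT library 1 as few as 11 reads lay behind a subunit, and differences between subunits were not tested.

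The loaders and their inhibitor act before the ring is in place. Cdt1, which brings the ring to the origin, had 2.11 and 19.6 RPKM in WT and 8.78 and 6.70 RPKM in the KO-labelled libraries. Both KO libraries lay between the WT libraries. The fitted log2 fold change of 0.12 (standard error 0.88) turned to -1.25 without WT library 1, and mean RPKM was lower in the KO-labelled libraries (7.74 against 10.9) although the mean log2 value was higher. Gmnn, the inhibitor of Cdt1, had 2.26 and 10.1 RPKM in WT against 19.6 and 5.07 RPKM, with overlapping groups and a log2 fold change of 0.89 that was 0.00 without WT library 1 and 0.01 without KO library 1. Orc6 had 8.06 and 7.74 RPKM in WT against 13.4 and 14.5 RPKM, with close values within each group and no overlap. The log2 fold change of 0.75 (standard error 0.36) was 0.78 without WT library 1, but the gene overlaps Vps35 (316 reads) on the other strand. Cdc6 had 31 reads in all and a log2 fold change of 0.90, and Orc1 had 12 reads and 0.30. Without KO library 1 these were 0.35 and -0.39. Mcm10, which helps start the active helicase, had 2, 0, 13 and 2 reads and was not tested.

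**Figure D3:**
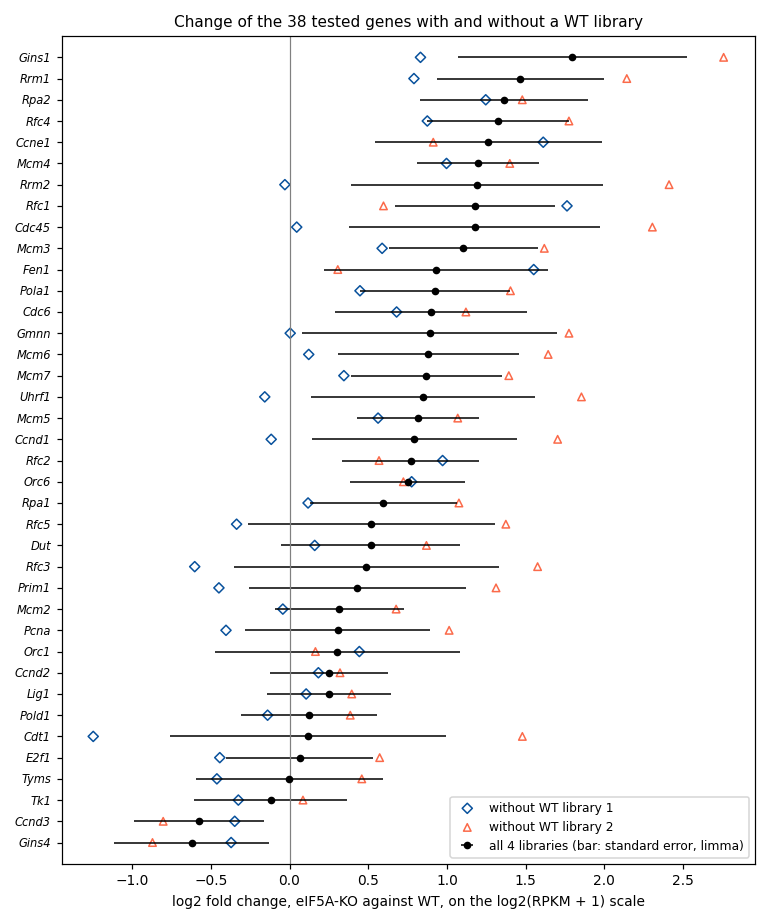
Fitted log2 fold change of the 38 tested genes, KO against WT on the log2(RPKM + 1) scale, with standard errors from limma (black), and the same without WT library 1 (blue diamonds) or without WT library 2 (red triangles). With all libraries 34 genes lie above 0, and 23 do so without WT library 1.

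The partners that complete the helicase were thinly read. Cdc45 had 0.473 and 6.1 RPKM in WT and 9.12 and 4.24 RPKM in the KO-labelled libraries, from 1, 10, 29 and 12 reads. The groups overlapped, and the log2 fold change of 1.18 (standard error 0.80) was 0.05 without WT library 1. Gins1, a GINS subunit, had 0, 2, 11 and 5 reads, which are 0, 2.80, 8.0 and 4.08 RPKM. It had the highest fitted log2 fold change of the members, 1.79 (standard error 0.73, unadjusted p = 0.0496, limma), from 18 reads, and 0.83 without WT library 1. Gins4 went the other way, with 16 and 11 RPKM in WT and 12.3 and 5.51 RPKM in the KO-labelled libraries. Its log2 fold change of -0.62 (standard error 0.49) was the lowest of the members, and its groups overlapped. It was -0.11 without KO library 2 and -0.37 without WT library 1. Gins2 with 9 reads and Gins3 with 3 reads in all were not tested. The tested GINS subunits thus lay on either side of 0, on few reads.

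The clamp and its loader were all above 0 in fold change, with a median of 0.64 over 6 genes, but without WT library 1 the median was 0.27 with 3 of 6 above 0. Pcna is the sliding clamp and had the highest mean RPKM of the members. It had 16.6 and 46.0 RPKM in WT and 28.5 and 41.8 RPKM in the KO-labelled libraries. WT library 2 was the highest of the 4, and the log2 fold change of 0.31 (standard error 0.59) was -0.40 without WT library 1. Rfc1, the large subunit of the loader, had its lowest value in WT library 2, with 4.41 and 1.41 RPKM in WT and 8.61 and 5.96 RPKM in the KO-labelled libraries. The log2 fold change was 1.18 (standard error 0.51), and it became 1.76 when WT library 1 was left out and 0.60 without WT library 2. Rfc4, a small subunit, had 3.25 and 6.92 RPKM in WT against 15.1 and 12.1 RPKM, without overlap. The fitted log2 fold change was 1.33 (standard error 0.45, unadjusted p = 0.027, adjusted p = 0.668, limma), from 44 reads. Without WT library 1 it was 0.88. Rfc4 overlaps Eif4a2 (254 reads) on the other strand. Rfc2 had a log2 fold change of 0.77 and non-overlapping groups, while Rfc3 (0.49) and Rfc5 (0.52) had 0 reads in WT library 1 and overlapping groups, with -0.60 and -0.34 without that library.

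Over the 3 tested polymerase genes the median was 0.43 on the log2 scale, and -0.14 with 1 of 3 above 0 without WT library 1. Pola1, the catalytic subunit of the polymerase that lays down primers with primase, had 1.13 and 3.13 RPKM in WT and 5.25 and 4.07 RPKM in the KO-labelled libraries. Its log2 fold change was 0.93 (standard error 0.47), and 0.45 without WT library 1. Pold1, the catalytic subunit of lagging-strand polymerase delta, had 5.46 and 8.30 RPKM in WT against 5.67 and 9.68 RPKM. Its values interleaved, with a log2 fold change of 0.12 and a 95% interval from -0.94 to 1.19, and the value was -0.14 without WT library 1. Prim1, a primase subunit, had 0.429 and 3.84 RPKM against 2.00 and 3.20 RPKM and a log2 fold change of 0.43, which was -0.45 without WT library 1. Pole, the leading-strand polymerase, had 0 and 1 reads in WT and 25 and 8 reads in the KO-labelled libraries. It lay under the mean of 1 RPKM and was not tested there. In limma-voom its log2 fold change was 3.42 with an unadjusted p of 0.075.

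Rpa1, the large subunit of the complex that coats single-stranded DNA, had 8.33 and 17.1 RPKM in WT and 19.4 and 18.0 RPKM in the KO-labelled libraries, a log2 fold change of 0.60 (standard error 0.46) that was 0.12 without WT library 1. Rpa2, its partner, had 1.66 and 2.13 RPKM in WT against 3.68 and 10.8 RPKM. The groups of Rpa2 did not overlap, the KO pair being far apart, and its log2 fold change was 1.36 (standard error 0.53, unadjusted p = 0.044, adjusted p = 0.672, limma). Without KO library 2 it was 0.70. Lig1, the ligase that joins Okazaki fragments, had 3.89 and 4.97 RPKM in WT and 6.72 and 4.35 RPKM in the KO-labelled libraries. Its groups overlapped and its log2 fold change was 0.25 (standard error 0.39). Fen1, which trims the flaps before joining, had 10 reads in all and a log2 fold change of 0.93, which was 0.31 without WT library 2.

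The 5 enzymes of nucleotide supply had a median log2 fold change of 0.51, which was -0.03 without WT library 1. Rrm1 (ENSMUSG00000030978, chromosome 7, 102441695 to 102469771, plus strand), the large subunit of ribonucleotide reductase, had 1.81 and 6.17 RPKM in WT and 12.4 and 10.5 RPKM in the KO-labelled libraries. Its groups did not overlap, with means of 3.99 ± 3.08 and 11.4 ± 1.39 RPKM (SD, n = 2 each). The log2 fold change was 1.47 (standard error 0.53, unadjusted p = 0.034, adjusted p = 0.672, limma), and 0.79 without WT library 1. Rrm2, the small subunit that cycling cells make in S phase, had 2.99 RPKM in WT library 1 and 20.7, 19.1 and 21.4 RPKM in the others. WT library 2 thus lay among the KO libraries, and the log2 fold change of 1.19 (standard error 0.80) was -0.03 without WT library 1.

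The thymidylate enzymes lay near 0 with wide intervals. Tk1, the salvage kinase, had 1.60 and 2.45 RPKM in WT and 2.12 and 1.43 RPKM in the KO-labelled libraries, a log2 fold change of -0.12 with a 95% interval from -1.32 to 1.08. Tyms, thymidylate synthase, had 0.817 and 2.44 RPKM against 1.81 and 1.22 RPKM and a log2 fold change of -0.0014. Each had fewer than 30 reads over the 4 libraries (27 for Tk1 and 26 for Tyms). Dut, which removes dUTP, had 12 reads and 0.51, or 0.16 without WT library 1. Whether the thymidylate enzymes differ from Rrm1 and Rrm2 was not tested.

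The regulators of S phase entry had a median of 0.25 over 5 tested genes, which was -0.12 with 2 of 5 above 0 without WT library 1. Ccnd1, the D-type cyclin that growth factors induce, had 5.28 RPKM in WT library 1 and 21.2, 17.6 and 21.6 RPKM in the others. The log2 fold change of 0.79 (standard error 0.65) was -0.12 without that library. Ccnd2, another D cyclin, had 9.34 and 10.4 RPKM in WT and 13.5 and 10.5 RPKM in the KO-labelled libraries. It had 294 reads, the most of any member, and the nearest WT and KO-labelled values almost touched. The fitted log2 fold change was 0.25 with a 95% interval from -0.67 to 1.18, and it was 0.09 without KO library 1 and 0.42 without KO library 2. Ccnd3, the D cyclin linked to differentiating muscle, was the single member lower in both KO-labelled libraries, with 4.35 and 2.90 RPKM in WT against 1.88 and 2.26 RPKM. Its log2 fold change was -0.58 (standard error 0.41, unadjusted p = 0.214, limma), and -0.35 without WT library 1. It overlaps Bysl (88 reads) on the other strand.

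By RPKM, Ccnd2 was the highest D cyclin in WT library 1, and Ccnd1 was the highest in the 3 other libraries. This ranking rested on gene length, 9409 bases for Ccnd2 and 4709 for Ccnd1, although their coding sequences have 867 and 885 bases. Ccnd2 had 53, 46, 115 and 80 reads (WT libraries 1 and 2, then KO libraries 1 and 2), and Ccnd1 had 15, 47, 75 and 82. By read number Ccnd2 thus also led in KO library 1, and both genes were close in WT library 2 and KO library 2. E2f1, the activating transcription factor, had 3.16 and 7.4 RPKM in WT and 4.54 and 5.89 RPKM in the KO-labelled libraries, a log2 fold change of 0.06, or -0.44 without WT library 1. The KO libraries lay within the WT range. Ccne1 with 11 reads had a log2 fold change of 1.26, and Ccne2 with 7 reads was not tested. Uhrf1, which brings the maintenance methyltransferase to newly copied DNA, had 2.34 and 12.5 RPKM in WT and 14.0 and 8.72 RPKM in the KO-labelled libraries. The log2 fold change of 0.85 (standard error 0.71) was -0.16 without WT library 1.

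Recovered whole reads were also tested by limma-voom, which weights genes by their read numbers. Of 32 members with at least 20 reads, 29 were above 0 with a median log2 fold change of 0.94. In that fit 0 of the 32 passed an adjusted p of 0.05, where 0.414% of the 9179 genes with at least 20 reads did by limma-voom. At an unadjusted p under 0.05, 6 were higher (Mcm3, Mcm4, Rfc1, Pola1, Rrm1 and Rrm2), where 3.31% of those 9179 genes were. Rrm1 had the smallest p, its log2 fold change being 1.78 (standard error 0.52, unadjusted p = 0.003, adjusted p = 0.225, limma-voom). Mcm4 and Rrm1 were the members at an unadjusted p under 0.05 in both tests. Gins1, with fewer than 20 reads, was not in this fit.

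The other genes of the pathway had a smaller median with all libraries in the fit. Of 71 further replication and G1/S genes, 59 were tested, and 42 of these lay above 0, with a median log2 fold change of 0.32. By limma 0 passed an adjusted p of 0.05, and at an unadjusted p under 0.05 there were 6 higher and 1 lower, against 2.86% and 4.46% of all tested genes. The higher ones were the nucleotide enzymes Dtymk (1.20) and Shmt2 (1.32), the histone chaperone Asf1b (1.78), the S phase kinase Cdk2 (1.02), its cyclin Ccna2 (1.69) and the Rb relative Rbl1 (1.14). The lower one was Pold4 (-1.30, or -0.74 without KO library 1), a small polymerase delta subunit with 19 reads. In WT, Asf1b had 1 and 2 reads, and Ccna2 had 0 and 3. Ccna2 was 1.01 without WT library 1. By limma-voom, 3 of 52 were higher at an unadjusted p under 0.05 and 0 lower, where 3.31% of 9179 genes were higher. The 3 were Shmt2, Rbl1 and the nucleotide enzyme Cad. Without WT library 1 the order turned, with a median of 0.26 in this list and 0.12 in the members. Shmt2, the mitochondrial one-carbon enzyme, had 9.60 and 11.6 RPKM in WT and 36.9 and 21.1 RPKM in the KO-labelled libraries. Its groups did not overlap.

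Genes of mitosis, which act after replication, gave a nearby median and the same order of libraries by share of reads. Of 29 mitotic genes, 26 had a log2 fold change above 0, with a median of 0.74, and 19 had both KO-labelled libraries above both WT libraries (20.1% of all tested genes). By limma 0 passed an adjusted p of 0.05, and 2 (Tpx2 and Smc2) were higher at an unadjusted p under 0.05 (2.86% of all tested genes). Without WT library 1 the mitotic median was 0.50 with 22 of 29 above 0, where the replication genes gave 0.12. Their share of protein-coding reads was 0.119% and 0.141% in WT and 0.241% and 0.168% in the KO-labelled libraries, and the interval of WT library 2 overlapped those of WT library 1 and KO library 2. Cdk1, which drives entry into mitosis, had 6.1 and 10.8 RPKM in WT against 20.3 and 14.1 RPKM. Smc2, a condensin subunit, had 3.33 and 2.32 RPKM against 9.66 and 7.46 RPKM, a log2 fold change of 1.32 with unadjusted p = 0.014 and adjusted p = 0.646 (limma). The difference between the lists was not tested.

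The CDK inhibitors, which hold cells out of S phase, had a median log2 fold change of -0.63 over 7 tested genes, 3 of which had at least 20 reads. Cdkn1a, the inhibitor p21, had 142.4 and 116.5 RPKM in WT and 112.3 and 151.2 RPKM in the KO-labelled libraries. Its values interleaved, and the fitted log2 difference was 0.02 (standard error 0.47). Cdkn2d had 5 and 3 reads in WT and 0 in both KO-labelled libraries, with unadjusted p = 0.004 and adjusted p = 0.538 (limma). Among the genes with at least 20 reads the median was 0.02. Over the 7 genes it was -0.20 without WT library 2 and -0.24 after a correction for coding GC.

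The members with a run of prolines did not lie lower in the KO-labelled libraries. All 6 tested ones were above 0, with a median log2 fold change of 0.89 (0.28 without WT library 1, 4 of 6 above 0), and the 32 without one had a median of 0.76 with 28 above 0 (0.12 and 19 of 32 without that library). Over the 2543 tested protein-coding genes with such a run the median was -0.13, with 41.5% above 0. Without WT library 1 these values were -0.03 and 47.7%, and without WT library 2 they were -0.25 and 37.3%. The median coding GC of these genes was 55.4%, against 53.2% for all tested protein-coding genes, and its part was not tested. Lig1, with 4 prolines in a row, had 0.25, and Ccne1 passed the filter only through the KO-labelled libraries. The table sums reads per gene, so where along a coding sequence the ribosomes stood was not analysed here.

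Coding GC content moved with the change over all genes, and it is given here for the members. Across 9869 tested protein-coding genes, which are not independent replicates, Spearman's rho between coding GC and log2 fold change was -0.36, and across the 38 members it was -0.47. The tested members' median coding GC was 50.8%, against 53.2% for tested protein-coding genes. Protein-coding genes with a GC content between the members' quartiles (48.1% and 56.3%) had a median of 0.11. With the GC trend removed in each library, the members' median was 0.68 with 35 of 38 above 0. Rfc4 and Pola1 were at the low end of GC (42.4% and 41.9%). Cdt1, Ccnd3 and E2f1 were at the high end (62.5%, 61.8% and 60.9%), with log2 fold changes between -0.58 and 0.12. Next below them, Pold1 (60.7%) had 0.12, Dut (60.0%) 0.51 and Ccnd1 (58.5%) 0.79. Gins4, with the lowest log2 fold change of the members, -0.62, had a GC content of 49.8%.

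**Figure D4:**
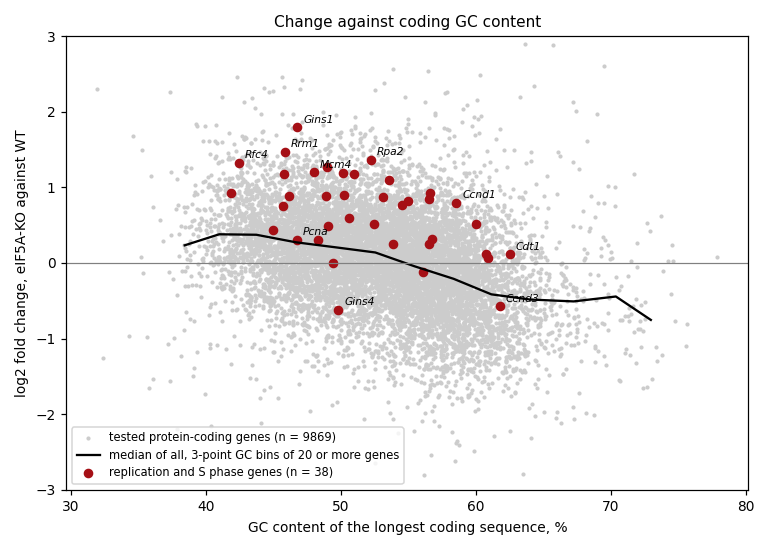
Log2 fold change (KO against WT) against the GC content of the longest coding sequence (%), for 9869 tested protein-coding genes (grey, 7 of them outside the axis), their median in GC bins (black line) and the 38 tested members (red, some named). Most members lie above the line of medians, and 35 of 38 were above 0 with the GC trend removed.

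The 12 tested members with an E2F word were all above 0, their median log2 fold change being 0.83, and the 26 without a word, or without a window, had a median of 0.76 with 22 above 0. Without WT library 1 these medians were 0.23 with 8 of 12 above 0 and 0.08 with 15 of 26. Among the 12, Orc1 and Cdc6 passed the filter only through the KO-labelled libraries. The difference between the medians was not tested.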

How the data were processed

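The deposited table gave RPKM values that the authors computed for each gene and library, with the gene length in bases. Per the study's methods and the submitters' processing notes, low-quality, rRNA and tRNA reads were removed, reads were mapped with TopHat2 to mm10 with an Ensembl annotation, and genes were counted with HTSeq. Strand use in counting is not given in the sources used here. The study describes polysome sequencing and ribosome profiling as separate assays. The sample titles name the former and the extraction text describes the latter. RPKM times gene length gave whole multiples of 1 step (within 0.01) for 100% of values above 0, so whole reads were recovered. The library size used by the authors, 471136 to 906990, equals a median-of-ratios size factor multiplied by the libraries' geometric mean total.

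Genes averaging 1 RPKM or more were fitted together with limma 3.58.1 in R 4.3.3 (lmFit, eBayes with trend=TRUE) on log2(RPKM + 1), with Benjamini-Hochberg adjustment over all of them. The average was over both groups, so a gene of any list could pass through 1 group alone. The log2(RPKM + 1) scale understates the change of weakly read genes. Fold changes are KO against WT. An exact permutation test of 2 against 2 libraries cannot give a p under 0.333 and was not used. Coding sequences came from GENCODE M21 (GRCm38), which held 99.7% of the table's identifiers, 99.7% of them at the same coordinates, and took the longest coding sequence of each gene. Alternatives were a pseudocount of 0.1, other filters, other scalings, limma-voom with TMM factors on recovered reads, removal of the trend on coding GC (loess, span 0.3), the replicate number as a block, and leaving out each library. The members and lists were chosen with earlier results of these data known. Values per library were given for the member with the highest mean in each role, the highest and lowest log2 fold change among those with at least 20 reads, and every member at an unadjusted p under 0.05. Mcm2, Mcm3, Mcm10, Orc6, Gmnn, Rfc1, Pole, Prim1, Tyms, Ccnd2, E2f1 and the genes of other lists were added after their values were seen.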

Additional observations from a re-analysis of the deposited data

How the results depend on the processing

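No member passed an adjusted p of 0.05 in any of the 17 fits, and the smallest adjusted p of the 19 members named by rule was 0.225, by limma-voom. The members' median log2 fold change of 0.78 was 0.12 without WT library 1, and between 0.12 and 1.10 when any 1 library was left out. It kept its sign in every fit. Scaling to the same sum of reads moved the median of all genes to 0.50 and that of the members to 1.28, a distance of 0.79, against 0.78 as reported. The 34 members above 0 became 20 of 21 with a minimum mean of 5 RPKM, which tests fewer genes, and 23 to 36 with 1 library left out.

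The 5 members higher at an unadjusted p under 0.05 became 3 with every gene above 0 tested, 14 with the same sum of reads, 3 with the same sum of protein-coding reads and 2 with trend=FALSE. They became 0 to 14 with 1 library left out, being 2 without WT library 1 (Rfc1 and Fen1), 14 without WT library 2, 1 without KO library 1 and 0 without KO library 2. In these fits the lone library of a group is assumed to vary like the others. The cause was not tested. The 12 genes called over the whole table became 0 under every other fit except limma-voom (38), the same sum of protein-coding reads (13) and quantile normalization (12), and 0 with any 1 library left out.

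With the replicate block, 5 members were at an unadjusted p under 0.05, with Rfc1 in place of Gins1, and 0 genes were called. Same-numbered libraries share only a number, and the correlation of their deviations from the group means was 0.0575.

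Of the 19 members named by rule, signs turned for Tk1, 0.29 with the same sum of reads and 0.000624 with the GC trend removed. With 1 library left out the ranges were -1.25 to 1.48 for Cdt1, -0.40 to 1.01 for Pcna, -0.22 to 0.46 for Pold1, -0.0138 to 0.51 for Lig1, -0.0297 to 2.41 for Rrm2, -0.33 to 0.0852 for Tk1, -0.12 to 1.70 for Ccnd1 and -0.16 to 1.85 for Uhrf1. Of the other tested members, Mcm2, Rfc3, Rfc5, Prim1 and E2f1 turned without WT library 1, Orc1 without KO library 1, E2f1 without KO library 2, and Tyms without WT library 2 or KO library 2. The median of the CDK inhibitors was 0.0172 with a minimum mean of 5 RPKM or at least 20 reads and 0.0134 by limma-voom, which keep 3 of the 7 genes. Depth limits all of this: 11 of the 43 members had under 20 reads over the 4 libraries.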
